A study of Mus musculus with 46 samples.

Results

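The 8 genes described here, *Serpinb6a*, *Serinc3*, *Anxa7*, *Pla2g7*, *2310016D23Rik*, *Pitpna*, *Il1r1* and *Efcab6*, are 8 of the 16642 genes counted in both muscles. They were chosen by their measured values in these same libraries, from genes with large responses to orchidectomy (ORX) or dihydrotestosterone (DHT), large genotype differences, or responses that differed between genotypes. Large changes in them are therefore what the choice looked for, and the treatment changes, the genotype differences and the KO minus WT differences of the changes are given as values with standard errors (SE), without *q* values.

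Skeletal muscle of male WT and *Actn3* KO mice on a C57BL6 background was sequenced 12 weeks after ORX or sham surgery, which was done at 8 to 10 weeks of age, and the muscle was the gastrocnemius. Female WT and KO mice of the same background received an empty implant or an implant of 10 mg DHT at 4 to 5 weeks of age, and the spinalis was taken 6 weeks later. The groups were WT-SHAM (6 libraries), WT-ORX (6), KO-SHAM (6), KO-ORX (5 counted of 6 labelled) in males, and KO-DHT (6), KO-Empty (5), WT-DHT (6) and WT-Empty (5) in females. Sex, muscle, age and the direction of the androgen change all differed between the experiments, so each was analysed on its own.

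Assigned counts per library in the males were 43.4 to 50.3 M (median 47.1 M) for WT-SHAM, 39.9 to 55.4 M (median 45.6 M) for WT-ORX, 29.5 to 37.5 M (median 34.3 M) for KO-SHAM and 26.7 to 48.5 M (median 41.6 M) for KO-ORX. In the females they were 37.3 to 51.2 M (median 47.0 M) for WT-Empty, 34.8 to 53.9 M (median 52.0 M) for WT-DHT, 42.5 to 47.8 M (median 44.1 M) for KO-Empty and 34.9 to 51.7 M (median 44.2 M) for KO-DHT. Every KO-SHAM library was thus shallower than every WT-SHAM library. *Actn3* itself, which encodes the fast-fibre Z-disc protein α-actinin-3 and served as the check of the genotype labels, had raw counts of 271459 to 344665 in WT-SHAM, 334134 to 522718 in WT-ORX, 357573 to 518011 in WT-Empty and 222975 to 393368 in WT-DHT. The corresponding raw counts were 1301 to 1653 in KO-SHAM, 1051 to 2702 in KO-ORX, 2643 to 3913 in KO-Empty and 2133 to 3407 in KO-DHT. No KO library came near any WT library, so all 45 labels fit the genotype they carry.

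Androgens act on muscle mostly through the androgen receptor, a transcription factor that binds DNA once it has bound testosterone or DHT. ORX removes the main source of testosterone in males, and DHT is an androgen that cannot be converted to an oestrogen, so androgen was lowered in the males and raised in the females. The 8 genes have unlike roles. *Serpinb6a* encodes an inhibitor of proteases inside the cell, *Serinc3*, *Anxa7*, *Pitpna* and *Pla2g7* encode proteins that carry, bind or cleave membrane lipids, *Il1r1* encodes a cytokine receptor, *Efcab6* encodes a partner of the androgen receptor, and *2310016D23Rik* is a long noncoding RNA. All 8 were detected in every library.

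*Serpinb6a* encodes a clade B serpin, a family that stays in the cytosol and inactivates serine proteases that leak from granules or lysosomes. Its level in TMM-scaled CPM, counts relative to library depth, was 372 to 455 CPM (median 397) in the 6 WT-SHAM mice and 149 to 183 CPM (median 168) in the 6 WT-ORX mice. The KO males gave 314 to 359.8 CPM (median 328) in the 6 KO-SHAM mice and 160.1, 173, 173, 174 and 185 CPM in the 5 KO-ORX mice. Every orchidectomised mouse was low and every sham mouse high, in both genotypes, and the KO sham mice lay wholly below the WT sham mice. DHT moved it the other way, from 106, 115, 123, 129.6 and 137 CPM in the 5 WT-Empty mice to 396 to 522 CPM (median 419.9) in the 6 WT-DHT mice. In the KO females the levels were 129, 145, 145, 152 and 153 CPM in the 5 KO-Empty mice and 277 to 338 CPM (median 312) in the 6 KO-DHT mice. All DHT mice were high and all empty-implant mice low without overlap, and every KO-DHT mouse lay below every WT-DHT mouse. The protease inhibitor thus followed androgen in both sexes and both genotypes.

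The edgeR log2 fold change of *Serpinb6a* with ORX was −1.27 (SE 0.053) in WT and −0.93 (SE 0.056) in KO. KO minus WT was 0.33 (SE 0.076) on the log2 scale, which leaves the KO change at 73.7% of the WT change. The log2 fold change with DHT was 1.82 (SE 0.083) in WT and 1.09 (SE 0.081) in KO. Of the 8 genes it kept the largest share of its WT response in KO muscle among those that responded clearly in both genotypes. With DHT, KO minus WT was −0.73 (SE 0.11) in log2 units, a KO change 59.8% of that in WT.

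*Serinc3* encodes a membrane-spanning protein of a family named for bringing serine into phosphatidylserine and sphingolipids, lipids that muscle fibres need for their plasma membrane and T-tubules. The WT males had 247 to 314 CPM (median 267) in the 6 WT-SHAM mice and 148 to 192 CPM (median 166) in the 6 WT-ORX mice. In KO males its level was 191 to 224 CPM (median 213) in the 6 KO-SHAM mice and 157, 158, 162, 179 and 195 CPM in the 5 KO-ORX mice. The WT groups were far apart, whereas KO-SHAM started lower and its lowest mouse lay below the highest KO-ORX mouse. Among females the WT mice went from 128, 138, 139, 142 and 149 CPM in the 5 WT-Empty mice to 424 to 514 CPM (median 460.3) in the 6 WT-DHT mice. The KO females had 118, 124, 128, 138 and 147 CPM in the 5 KO-Empty mice and 187 to 236 CPM (median 203) in the 6 KO-DHT mice. DHT mice were high in both genotypes with no overlap, but the highest KO-DHT mouse did not reach the lowest WT-DHT mouse.

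For *Serinc3* the log2 fold change with ORX was −0.72 (SE 0.068) in WT and −0.32 (SE 0.071) in KO, with KO minus WT at 0.40 (SE 0.098). With DHT the log2 fold change was 1.74 (SE 0.073) in WT and 0.65 (SE 0.071) in KO, with KO minus WT at −1.09 (SE 0.099). The KO response was 43.9% of the WT response for ORX and 37.5% for DHT, on the log2 scale. Loss of α-actinin-3 went with a smaller swing of this membrane-lipid gene in both directions of androgen change.

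*Anxa7* encodes annexin A7, which binds acidic phospholipids when calcium rises and brings membranes together during fusion. Its level in WT males was 99.7 to 135 CPM (median 111) in the 6 WT-SHAM mice and 69.7 to 79.0 CPM (median 75.4) in the 6 WT-ORX mice. KO males had 90.3 to 102 CPM (median 95.6) in the 6 KO-SHAM mice and 69.2, 75.2, 75.3, 76.7 and 78.2 CPM in the 5 KO-ORX mice. Sham mice were high and orchidectomised mice low in both genotypes, without overlap within a genotype. WT females had 48.2, 48.7, 52.1, 52.4 and 52.8 CPM in the 5 WT-Empty mice and 137 to 157 CPM (median 146) in the 6 WT-DHT mice. In KO females the level was 51.2, 57.1, 58.9, 59.3 and 65.0 CPM in the 5 KO-Empty mice and 80.0 to 94.6 CPM (median 83.6) in the 6 KO-DHT mice. The DHT mice were again the high ones, and KO-DHT sat between both empty-implant groups and WT-DHT, touching none of them.

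The log2 fold change of *Anxa7* with ORX was −0.62 (SE 0.056) in WT and −0.36 (SE 0.059) in KO, a KO minus WT difference of 0.26 (SE 0.081) and a KO change 58.0% of that in WT. With DHT it was 1.52 (SE 0.063) in WT and 0.54 (SE 0.061) in KO, a KO minus WT difference of −0.98 (SE 0.086) and a KO change 35.7% of that in WT. A calcium-regulated membrane-fusion gene therefore had the same pattern as the serine-lipid gene, low without androgen, high with it, and moving less in KO.

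*Pitpna* encodes phosphatidylinositol transfer protein alpha, which carries phosphatidylinositol and phosphatidylcholine between membranes and so feeds phosphoinositide signalling. It moved against androgen. WT males had 103 to 121 CPM (median 109.8) in the 6 WT-SHAM mice and 136 to 169.5 CPM (median 162) in the 6 WT-ORX mice. KO males had 101 to 121 CPM (median 109.6) in the 6 KO-SHAM mice and 109, 110.4, 118, 119 and 126 CPM in the 5 KO-ORX mice. All WT-ORX mice were high, while the KO groups overlapped and every KO-ORX mouse stayed below every WT-ORX mouse. WT females had 127, 129, 132, 134 and 144 CPM in the 5 WT-Empty mice and 65.9 to 89.7 CPM (median 78.2) in the 6 WT-DHT mice. The KO females gave 93.2, 109, 109.8, 122 and 128 CPM in the 5 KO-Empty mice and 104 to 135 CPM (median 113) in the 6 KO-DHT mice. WT-DHT mice were all low and KO-DHT mice overlapped KO-Empty mice.

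On the log2 scale *Pitpna* changed with ORX by 0.51 (SE 0.056) in WT and 0.079 (SE 0.059) in KO, and KO minus WT was −0.43 (SE 0.082). With DHT the log2 fold change was −0.77 (SE 0.084) in WT and 0.034 (SE 0.084) in KO, and KO minus WT was 0.80 (SE 0.12). The KO change was 15.5% of the WT change for ORX and −4.48% for DHT, so the phosphatidylinositol carrier moved more in WT than in KO muscle. Under library-size scaling its KO change with ORX was larger, at 0.19 (SE 0.064) in log2 units, but still below that in WT (0.55).

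*Pla2g7* encodes the secreted enzyme that cleaves platelet-activating factor and oxidised phospholipids, a product of macrophages in many tissues. It stood apart from the other lipid genes because its level differed far more by genotype than by treatment. The WT male levels were 58.5 to 83.8 CPM (median 68.6) in the 6 WT-SHAM mice and 54.95 to 60.9 CPM (median 57.8) in the 6 WT-ORX mice. In KO males they were 12.8 to 24.4 CPM (median 16.5) in the 6 KO-SHAM mice and 9.77, 9.92, 11.3, 15.2 and 16.4 CPM in the 5 KO-ORX mice. Every KO male was low and every WT male high, whereas sham and orchidectomised mice overlapped within each genotype. The WT females had 22.4, 22.9, 24.2, 24.6 and 25.9 CPM in the 5 WT-Empty mice and 23.3 to 38.8 CPM (median 28.3) in the 6 WT-DHT mice. KO female levels were 6.01, 6.69, 7.16, 7.34 and 9.06 CPM in the 5 KO-Empty mice and 6.53 to 10.4 CPM (median 8.16) in the 6 KO-DHT mice. Again the genotypes were separate and the implants overlapped.

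Between genotypes the log2 difference of *Pla2g7*, KO against WT, was −1.99 (SE 0.14) in sham mice, −2.20 (SE 0.15) after ORX, −1.73 (SE 0.14) with empty implants and −1.82 (SE 0.13) with DHT. KO muscle thus held 25.2%, 21.8%, 30.3% and 28.2% of the WT level in the same order. The treatment log2 fold change was −0.27 (SE 0.13) in WT and −0.48 (SE 0.15) in KO for ORX, with KO minus WT at −0.21 (SE 0.20). For DHT it was 0.31 (SE 0.13) in WT and 0.22 (SE 0.13) in KO, with KO minus WT at −0.099 (SE 0.19). As a share of WT the KO change was 176% for ORX and 68.4% for DHT, shares of WT changes that were themselves close to 2 SE. With single libraries left out, KO minus WT of *Pla2g7* ranged over −0.33 to −0.093 for ORX and −0.17 to −0.0056 for DHT in log2 units.

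*Il1r1* encodes the signalling receptor for interleukin-1 alpha and beta, present on fibroblasts, endothelial cells and muscle fibres among others. Its level in WT males was 14.2 to 26.95 CPM (median 15.7) in the 6 WT-SHAM mice and 8.66 to 12.4 CPM (median 10.1) in the 6 WT-ORX mice. The KO males had 7.38 to 13.1 CPM (median 8.76) in the 6 KO-SHAM mice and 8.52, 8.69, 9.03, 9.87 and 14.6 CPM in the 5 KO-ORX mice. WT-SHAM mice were high and the other 3 male groups were low and overlapped each other, with 1 KO-ORX mouse reaching into the WT-SHAM range. WT females left the range of all other groups, going from 6.27, 6.36, 7.04, 8.21 and 10.3 CPM in the 5 WT-Empty mice to 27.4 to 50.8 CPM (median 37.3) in the 6 WT-DHT mice. KO females stayed at 6.49, 6.78, 6.78, 7.26 and 7.98 CPM in the 5 KO-Empty mice and 6.54 to 8.64 CPM (median 7.87) in the 6 KO-DHT mice. The lowest WT-DHT mouse was above every KO-DHT mouse, and the KO implants could not be told apart.

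The log2 fold change of *Il1r1* with ORX was −0.80 (SE 0.16) in WT and 0.042 (SE 0.17) in KO, and KO minus WT was 0.84 (SE 0.23). The sign of the KO value depended on single mice, and without the KO-ORX mouse at 14.6 CPM (replicate 1) it was −0.12. With DHT the log2 fold change was 2.35 (SE 0.15) in WT and 0.12 (SE 0.14) in KO, and KO minus WT was −2.23 (SE 0.20), the largest difference of the 8 genes. The KO change was −5.28% of the WT change for ORX and 5.12% for DHT, so the receptor followed androgen in muscle with α-actinin-3 and hardly moved without it.

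*Efcab6* encodes an EF-hand protein that was described as a partner of DJ-1 and of the androgen receptor, and as a brake on the receptor's activity. WT male levels were 11.9 to 13.9 CPM (median 12.5) in the 6 WT-SHAM mice and 13.9 to 15.8 CPM (median 14.3) in the 6 WT-ORX mice. KO males ran the other way, with 16.6 to 18.7 CPM (median 17.5) in the 6 KO-SHAM mice and 13.8, 13.96, 14.8, 15.6 and 15.7 CPM in the 5 KO-ORX mice. KO-SHAM mice were the high group, with no mouse overlapping any other male group, and the KO-ORX mice had the level of WT-ORX mice. In WT females the level was 4.83, 5.06, 6.04, 6.52 and 7.76 CPM in the 5 WT-Empty mice and 5.55 to 8.32 CPM (median 7.55) in the 6 WT-DHT mice. In KO females it was 6.43, 6.84, 7.64, 7.97 and 8.20 CPM in the 5 KO-Empty mice and 9.19 to 11.7 CPM (median 10.1) in the 6 KO-DHT mice. KO-DHT mice were the high group here and overlapped none of the others.

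*Efcab6* had a log2 fold change with ORX of 0.18 (SE 0.053) in WT and −0.26 (SE 0.056) in KO, opposite in sign, and KO minus WT was −0.44 (SE 0.078). With DHT it was 0.26 (SE 0.12) in WT and 0.48 (SE 0.12) in KO, and KO minus WT was 0.22 (SE 0.17). The KO change was −141% of the WT change for ORX and 185% for DHT, the latter a share of a WT change close to 2 SE. Under library-size scaling the ORX changes of *Efcab6* were 0.22 in WT and −0.15 in KO, so the ORX share depends on the scaling, and with single libraries left out its KO minus WT value for DHT ranged over 0.11 to 0.29. By sign alone the receptor partner mirrored in KO and not in WT muscle, unlike any other of the 8.

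*2310016D23Rik* is a long intergenic noncoding RNA without a known function. It was scarce and, like *Pitpna*, moved against androgen. WT males had 2.31 to 3.57 CPM (median 3.16) in the 6 WT-SHAM mice and 5.54 to 6.67 CPM (median 5.90) in the 6 WT-ORX mice. For KO males the values were 4.35 to 6.29 CPM (median 5.18) in the 6 KO-SHAM mice and 5.48, 5.58, 5.74, 6.73 and 7.30 CPM in the 5 KO-ORX mice. Only WT-SHAM mice were low, and the KO groups overlapped. WT females had 2.51, 2.54, 3.10, 3.11 and 3.22 CPM in the 5 WT-Empty mice and 0.510 to 1.02 CPM (median 0.723) in the 6 WT-DHT mice. KO females had 2.63, 2.98, 3.87, 3.89 and 3.90 CPM in the 5 KO-Empty mice and 2.26 to 3.40 CPM (median 2.69) in the 6 KO-DHT mice. WT-DHT mice were the low group, wholly below all other females, and the KO implants overlapped.

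The log2 fold change of *2310016D23Rik* with ORX was 0.97 (SE 0.11) in WT and 0.25 (SE 0.11) in KO, and KO minus WT was −0.72 (SE 0.16). With DHT it was −1.90 (SE 0.17) in WT and −0.29 (SE 0.15) in KO, and KO minus WT was 1.61 (SE 0.23). The noncoding RNA thus kept 25.5% of the WT change in KO for ORX and 15.3% for DHT. Within each experiment the high-androgen WT muscle held the least of it, and KO muscle stayed nearer to androgen-poor WT muscle whatever the hormone.

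**Figure D1:**
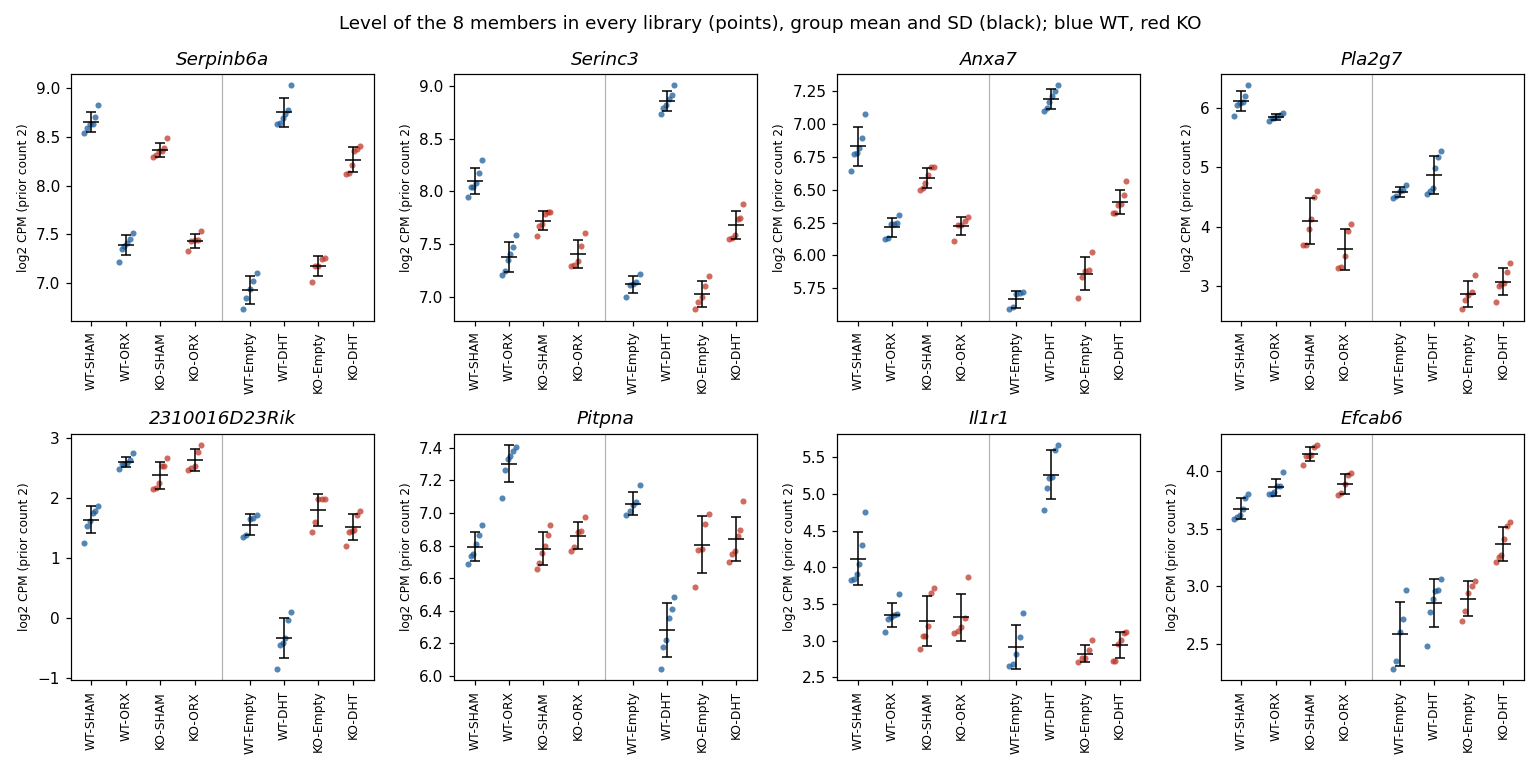
TMM-scaled level (log2 CPM, vertical axes) of the 8 genes in the 8 groups (horizontal axes), with each point a mouse and each bar a group mean. WT-DHT mice of *Il1r1* (up to 50.8 CPM) and of *2310016D23Rik* (down to 0.510 CPM) lie outside all other females, and all KO mice of *Pla2g7* lie below all WT mice of the same experiment.

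Signs of the ORX and DHT log2 fold changes were opposite for 7 of the 8 genes in WT, the exception being *Efcab6*, and for 6 of 8 in KO, the exceptions being *Pitpna* and *Il1r1*. In WT, 5 were lower and 3 higher with ORX, and 2 were lower and 6 higher with DHT. In KO, 5 were lower and 3 higher with ORX, and 1 was lower and 7 higher with DHT. The protease inhibitor, the serine-lipid gene and the annexin mirrored in both genotypes with values many SE from 0. *Pitpna*, *Il1r1* and *2310016D23Rik* mirrored in WT, while in KO the changes of *Pitpna* and *Il1r1* were within 2 SE of 0 and those of *2310016D23Rik* about 2 SE from it.

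By separation of the mice, 6 of the 8 genes did not overlap between WT-SHAM and WT-ORX and 6 did not overlap between WT-Empty and WT-DHT, where 6.04% and 11.3% of all genes did not. In KO, 3 did not overlap with ORX (all genes 5.34%) and 4 did not with DHT (all genes 6.08%). The choice of the genes used these comparisons, so nothing is read from the contrast with all genes. For reference, edgeR's quasi-likelihood test called 5.45% of all genes with ORX in WT (2.04% higher, 3.41% lower) and 5.57% in KO (1.99% higher, 3.58% lower), at *q* ≤ 0.01. With DHT it called 11.3% in WT (6.63% higher, 4.64% lower) and 4.62% in KO (2.86% higher, 1.75% lower). The split into higher and lower depended on the scaling, and with library-size scaling edgeR called 422 higher and 354 lower with ORX in WT, 707 and 193 in KO, and 771 and 997 with DHT in WT, against 358 and 597, 348 and 627, and 1126 and 788 with TMM. The interaction of genotype and treatment was called at *q* ≤ 0.05 in 0.0228% of all genes for ORX and 3.24% for DHT.

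The median absolute log2 fold change of the 8 genes was 0.67 with ORX in WT and 0.29 in KO, against 0.12 and 0.14 for all genes. With DHT it was 1.63 in WT and 0.39 in KO, against 0.18 and 0.16 for all genes. Seen gene by gene, the KO change was the smaller for 6 of 8 genes with ORX, the exceptions being *Pla2g7* and *Efcab6*, and for 7 of 8 with DHT, the exception being *Efcab6*. Under library-size scaling the ORX change of *Efcab6*, given above, was also smaller in size in KO. The same scaling moved other KO changes with ORX by over 1.5 times, as given for *Pitpna*, and to −0.21 for *Serinc3* (WT −0.69) and 0.14 for *Il1r1* (WT −0.76). The median absolute KO minus WT difference in log2 units was 0.42 for ORX and 0.89 for DHT, against 0.13 and 0.18 for all genes, again a quantity the choice looked for.

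**Figure D2:**
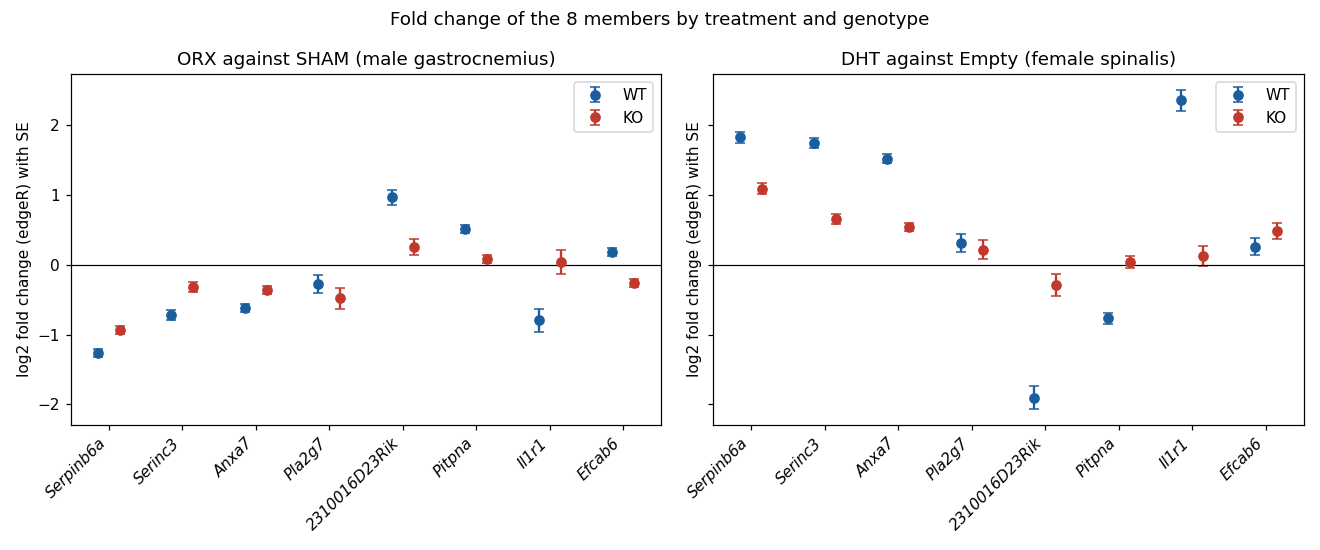
edgeR log2 fold change with ORX and with DHT (vertical axes) for each of the 8 genes (horizontal axes) in WT and KO. Points are the estimates and bars the SE on either side. *Il1r1* with DHT has the widest gap between genotypes (2.35 in WT, 0.12 in KO).

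Without treatment, the genotype differences are again values without a test, because the control mice also entered the changes by which genes were chosen. *Serpinb6a* had a KO-SHAM against WT-SHAM log2 difference of −0.29 (SE 0.052), and no KO mouse reached the WT range. For *Serinc3* the difference was −0.38 (SE 0.068) on the log2 scale, also without overlap. For *Anxa7* it was −0.25 (SE 0.056) in log2 units, and its groups overlapped, since the lowest WT-SHAM mouse (99.7 CPM) lay below the highest KO-SHAM mouse (102.0 CPM). KO-SHAM libraries were also the shallower ones, and whether depth contributed was not tested.

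With empty implants the log2 difference of KO against WT was 0.24 (SE 0.083) for *Serpinb6a*, −0.088 (SE 0.073) for *Serinc3* and 0.20 (SE 0.063) for *Anxa7*, with overlapping mice for each. With DHT it was −0.49 (SE 0.076) for *Serpinb6a*, −1.18 (SE 0.068) for *Serinc3* and −0.78 (SE 0.058) for *Anxa7*, without overlap. After ORX the KO minus WT differences were 0.044 (SE 0.055), 0.027 (SE 0.071) and 0.012 (SE 0.059) in the same order. The protease inhibitor and both membrane genes were thus lower in KO in sham and DHT mice, and near or above WT in the others by these values, *Serinc3* with empty implants being slightly below.

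The other genes differed in their own ways. *Il1r1* had a KO against WT log2 difference of −0.85 (SE 0.16) in sham, −0.015 (SE 0.17) after ORX, −0.12 (SE 0.15) with empty implants and −2.35 (SE 0.14) with DHT. *2310016D23Rik* gave log2 differences of 0.76 (SE 0.11), 0.036 (SE 0.11), 0.25 (SE 0.16) and 1.86 (SE 0.16) in that order. For both, the cytokine receptor and the noncoding RNA, genotypes were apart in sham and DHT mice and alike in androgen-poor mice. *Pitpna* differed by −0.012 (SE 0.057), −0.44 (SE 0.060), −0.25 (SE 0.087) and 0.56 (SE 0.080) in log2 units, being lower in KO after ORX and with empty implants and higher in KO with DHT. *Efcab6* differed by 0.47 (SE 0.054), 0.032 (SE 0.056), 0.29 (SE 0.12) and 0.51 (SE 0.11) in log2 units, being higher in KO everywhere but after ORX.

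KO and WT mice did not overlap for 6 of the 8 genes in sham (all genes 5.10%), where *Anxa7* and *Pitpna* overlapped, and for 2 of 8 after ORX (*Pla2g7* and *Pitpna*, all genes 5.60%). They did not overlap for 1 of 8 with empty implants (*Pla2g7*, all genes 6.77%) and for 8 of 8 with DHT (all genes 10.4%). edgeR's test called 5.30% of all genes between genotypes in sham and 4.25% with empty implants, at *q* ≤ 0.01. Genotype differences that change with treatment were among the values used in the choice, so nothing about muscle at large is read from these counts, and over all genes in males the share without overlap was no larger in sham than after ORX.

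Levels can be set against each other only per length, and the order depended on the length used, the union of all exons or the longest transcript. Per kb of exon union in WT-SHAM muscle *Serpinb6a* (74.6 ± 5.34 CPM per kb, mean ± SD) and *Serinc3* (71.5 ± 6.08) overlapped, whereas per kb of longest transcript their means were 184 and 74.6. By exon union *Pitpna* (26.9 ± 1.66), *Pla2g7* (24.1 ± 2.92) and *Anxa7* (19.0 ± 1.97) came next in CPM per kb, and by longest transcript the order of these lipid genes was *Anxa7* (39.3), *Pla2g7* (33.4) and *Pitpna* (29.5). By both lengths the protease inhibitor and the serine-lipid gene were the most abundant in sham WT muscle, and *2310016D23Rik* (7.91 ± 1.18 CPM per kb of exon union), *Il1r1* (2.79 ± 0.780) and *Efcab6* (1.99 ± 0.128) the scarcest. In WT-DHT muscle *Serinc3* was at 121 ± 8.21 and *Serpinb6a* at 80.0 ± 8.60 CPM per kb of exon union, and per kb of longest transcript the order turned, with 126 and 197. The cytokine receptor *Il1r1* stood above the noncoding RNA there by both lengths, with 6.15 ± 1.39 against 1.97 ± 0.472 CPM per kb of exon union, the reverse of WT-Empty (1.20 ± 0.266 against 7.46 ± 0.885).

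Genes that work with the 8 were followed in 7 lists written from textbook knowledge, all tested by edgeR's quasi-likelihood test at *q* ≤ 0.01, adjusted over all genes after Benjamini and Hochberg (BH). Over all lists 6 of 94 genes were called with ORX in WT (1 higher, 5 lower) and 7 of 94 with ORX in KO (3 higher, 4 lower). With DHT 11 of 92 were called in WT (10 higher, 1 lower) and 2 of 92 in KO (2 higher). With ORX these made up 6.38% of the partners for WT and 7.45% for KO, where 5.45% and 5.57% of all genes were called. With DHT they made up 12.0% in WT and 2.17% in KO, where 11.3% and 4.62% of all genes were called. Per exon length, with WT and KO pooled, the most abundant partners were *Serpinb9* in males and *Serpinb1a* in females, *Serinc1*, *Anxa6*, *Pafah1b1*, *Pitpnc1*, *Map3k7* and *Park7* (DJ-1) of the 7 lists. The level of *Serpinb1a* differed by genotype, with female medians of 2.92 CPM in WT-Empty, 2.89 in WT-DHT, 8.36 in KO-Empty and 8.85 in KO-DHT. The ranks of these serpins therefore need not hold within a genotype.

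Among lipid genes, the phosphoinositide list held the steadiest partner. *Cdipt*, which makes the phosphatidylinositol that *Pitpna* carries, fell with ORX with a log2 fold change of −0.57 (SE 0.074, *q* = 5.3e-06) in WT and −0.47 (SE 0.080, *q* = 0.00026) in KO, by edgeR. It rose with DHT by 0.77 (SE 0.068, *q* = 6.3e-09) in WT and 0.33 (SE 0.067, *q* = 0.0024) in KO, and edgeR's interaction was −0.44 (SE 0.095, *q* = 0.0081). In WT the mRNA of this enzyme thus moved opposite to that of the carrier, and in KO it moved too, where the *Pitpna* change was small. *Cds1*, which makes the CDP-diacylglycerol used by *Cdipt*, rose with DHT by 1.47 (SE 0.26, *q* = 0.00023) in WT and 1.27 (SE 0.26, *q* = 0.0029) in KO on the log2 scale, by edgeR. In this list 1 of 16 genes was called with ORX in WT and 2 of 16 in KO (also *Pitpnm3*, higher), and 3 of 15 with DHT in WT (also *Pip5k1a*, higher) and 2 of 15 in KO, where *Pitpnm3* and *Pip5k1a* were named after their values were seen.

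Levels of *Cdipt* were 18.0 to 22.3 CPM (median 20.3) in WT-SHAM, 12.7 to 16.04 CPM (median 13.3) in WT-ORX, 16.02 to 23.3 CPM (median 18.8) in KO-SHAM and 12.6 to 14.9 CPM (median 13.6) in KO-ORX. They were 13.3 to 16.4 CPM (median 14.7) in WT-Empty, 22.8 to 27.8 CPM (median 24.7) in WT-DHT, 16.3 to 18.9 CPM (median 17.3) in KO-Empty and 20.1 to 23.4 CPM (median 22.4) in KO-DHT. Orchidectomised mice were low and DHT mice high in both genotypes, without overlap within a genotype.

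In the serine-lipid list *Serinc2*, a second member of the family, rose with DHT in WT with a log2 fold change of 0.47 (SE 0.094, *q* = 0.00079) and was 0.17 (SE 0.093, *q* = 0.27) in KO, by edgeR, and no other of the 11 was called. With ORX edgeR called 0 of 11 (2 at an unadjusted *p* < 0.05, DESeq2 0, limma-voom 0) in WT and 0 of 11 (2 at an unadjusted *p* < 0.05, DESeq2 1, limma-voom 0) in KO, and with DHT in KO 0 of 11 (2 at an unadjusted *p* < 0.05, DESeq2 0, limma-voom 0). Of 14 genes in the list of annexins and their binding partners, the 1 called with ORX was *Anxa6*, the annexin of muscle membrane repair, with a log2 fold change of −0.26 (SE 0.043, *q* = 0.00016) in WT and −0.22 (SE 0.045, *q* = 0.0023) in KO, by edgeR. With DHT 2 of the 14 were called in WT, *Anxa4* at 0.57 (SE 0.11, *q* = 0.00036) and *Anxa8* at 1.63 (SE 0.31, *q* = 0.00035) in log2 units by edgeR, and in KO edgeR called 0 of 14 (2 at an unadjusted *p* < 0.05, DESeq2 1, limma-voom 0). In WT 5.45% of all genes were called with ORX and 11.3% with DHT, so no trend of the family is read from these few calls. *Anxa6* was not called with DHT, at 0.10 (SE 0.069, *q* = 0.37) in WT in log2 units by edgeR. It thus lacked the clear rise with DHT that *Anxa7* had.

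In the list around *Pla2g7*, 2 of 17 genes were called with ORX in WT and 1 in KO. *Pla2g12a*, a secreted phospholipase, fell with ORX with a log2 fold change of −0.31 (SE 0.076, *q* = 0.0081) in WT and −0.33 (SE 0.081, *q* = 0.0089) in KO, by edgeR, and *Pla2g5*, named after its values were seen, was higher in WT. With DHT 2 of 17 were called in WT, *Pafah2*, an intracellular enzyme with the activity of *Pla2g7*, at 0.60 (SE 0.13, *q* = 0.0017), and *Lpcat3*, which returns fatty acids to lysolipids, at 0.37 (SE 0.093, *q* = 0.0057) in log2 units by edgeR. In KO *Pafah2* was at 0.50 (SE 0.13, *q* = 0.014) by edgeR, without overlap of the mice and called by DESeq2, and KO minus WT was −0.095 (SE 0.18, *q* = 0.87) by edgeR. For *Lpcat3* the KO value was 0.24 (SE 0.093, *q* = 0.096), with KO minus WT at −0.13 (SE 0.13, *q* = 0.71), by edgeR. The *Pla2g12a* calls were lost without any of several single mice, and the *Lpcat3* call without any of 4 WT-Empty or 3 WT-DHT mice, with edgeR's *q* up to 0.0264 for *Pla2g12a* in WT, 0.0356 in KO and 0.0259 for *Lpcat3*. With DHT in KO edgeR called 0 of 17 (6 at an unadjusted *p* < 0.05, DESeq2 1, limma-voom 0).

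Among interleukin-1 ligands, receptors and signalling genes, with ORX 1 of 19 was called in WT and 2 in KO, *Map3k7*, the kinase downstream of the receptor, at a log2 fold change of −0.16 (SE 0.038, *q* = 0.005) in WT and −0.21 (SE 0.040, *q* = 0.00082) in KO, by edgeR, and *Il1rl1*, higher in KO and named after its values were seen. With DHT 3 of 18 were called in WT, and in KO edgeR called 0 of 18 (3 at an unadjusted *p* < 0.05, DESeq2 0, limma-voom 0). The decoy receptor *Il1r2* rose with DHT in WT by 1.57 (SE 0.34, *q* = 0.0015) in log2 units, *Map3k7* rose by 0.19 (SE 0.051, *q* = 0.008) and *Irak1* fell, at −0.29 (SE 0.059, *q* = 0.00085), by edgeR. Leaving out single mice ended the *Map3k7* call in WT for ORX (*q* up to 0.0163, edgeR) and for DHT (*q* up to 0.0303). The signalling receptor and its decoy were thus both higher in WT-DHT than in WT-Empty muscle. The decoy was scarce, however, at 0.4865 to 2.052 CPM in WT-DHT, and overlapped KO-DHT (0.3592 to 0.7796 CPM). In KO the log2 fold change of *Il1r2* with DHT was 0.68 (SE 0.34, *q* = 0.22), and KO minus WT was −0.89 (SE 0.48, *q* = 0.4), by edgeR.

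Partners of the androgen receptor and DJ-1 gave *Efcab2*, lower with ORX in WT at a log2 fold change of −0.29 (SE 0.056, *q* = 0.00087) by edgeR, the 1 called of 12 there. With DHT edgeR called 0 of 12 (2 at an unadjusted *p* < 0.05, DESeq2 1, limma-voom 1) in WT and 0 of 12 (3 at an unadjusted *p* < 0.05, DESeq2 1, limma-voom 0) in KO. Of 18 clade B serpins 5 were tested, and edgeR called 0 of 5 (1 at an unadjusted *p* < 0.05, DESeq2 0, limma-voom 0) with ORX in WT and 0 of 5 (0 at an unadjusted *p* < 0.05, DESeq2 0, limma-voom 0) in KO. With DHT it called 0 of 5 (1 at an unadjusted *p* < 0.05, DESeq2 0, limma-voom 0) in WT and 0 of 5 (0 at an unadjusted *p* < 0.05, DESeq2 0, limma-voom 0) in KO. Of all genes 5.45% were called with ORX and 11.3% with DHT in WT, and 5.57% and 4.62% in KO. With 5 genes, no contrast with *Serpinb6a* is read from this. *Serpinb9*, the most abundant relative per exon length in males, had a mean of only 8.80 CPM there, against 273 CPM for *Serpinb6a*. The relative with the smallest *p* with ORX in WT was *Serpinb1a* at 0.33 (SE 0.13, *q* = 0.11) in log2 units, by edgeR.

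Some of these calls ended under other settings. Under library-size scaling in place of TMM, edgeR's *q* was 0.0948 for *Anxa6* in KO-ORX, 0.0102 for *Anxa4* in WT-DHT and 0.0123 for *Efcab2* in WT-ORX. It was 0.0535 and 0.103 for *Pla2g12a* and 0.145 and 0.187 for *Map3k7* with ORX in WT and KO, and with DHT in WT 0.0326 for *Lpcat3* and 0.188 for *Map3k7*. The log2 fold changes under that scaling in KO-ORX were −0.107 for *Anxa6* (TMM −0.216), −0.105 for *Map3k7* (−0.212) and −0.219 for *Pla2g12a* (−0.325). In WT-ORX they were −0.253 for *Efcab2* (−0.290), −0.122 for *Map3k7* (−0.162) and −0.261 for *Pla2g12a* (−0.310). In WT-DHT they were 0.508 for *Anxa4* (0.568), 0.305 for *Lpcat3* (0.372) and 0.123 for *Map3k7* (0.193). Fitted with only the groups compared, *q* was 0.0188 for *Anxa6* and 0.0121 for *Map3k7* in KO-ORX, 0.0140 for *Lpcat3* in WT-DHT and 0.0201 for *Cds1* in KO-DHT, by edgeR. In that fit it was also 0.0228 for *Pla2g12a* in WT-ORX, 0.0107 for *Map3k7* in WT-ORX and 0.0447 for *Map3k7* in WT-DHT, and by limma-voom *q* was 0.0102 for *Pla2g12a* in KO-ORX. The annexin *Anxa6* also lost its KO-ORX call without KO-ORX replicate 5 (edgeR's *q* = 0.0105), and with DHT in KO the lipid enzyme *Cds1* lost its call without 1 KO-Empty mouse (log2 fold change 1.14, edgeR's *q* = 0.0113), as *Cdipt* did without another (0.31). The calls of *Cdipt* in both genotypes with ORX and in WT with DHT held in all settings.

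Muscle is a mixture of cells, and in bulk RNA fewer cells of a type and less RNA per cell cannot be told apart. Fibre markers were found 8 of 8 with *Acta1* the most abundant, and their summed level overlapped between all groups compared. No marker of any list was at 0 in any library. Macrophage and leukocyte markers, found 9 of 9 with *Lyz2* the most abundant, bear on *Pla2g7* and *Il1r1*, and they summed to 172 to 209 CPM (median 198) in WT-SHAM, 155 to 195 CPM (median 181) in WT-ORX, 136 to 207 CPM (median 154) in KO-SHAM and 146 to 183 CPM (median 163) in KO-ORX. In females the same sum was 138 to 202 CPM (median 149) in WT-Empty, 148 to 245 CPM (median 163) in WT-DHT, 118 to 359.7 CPM (median 183) in KO-Empty and 154 to 204 CPM (median 169) in KO-DHT. These groups overlapped throughout. Single markers of this list went both ways in KO-SHAM against WT-SHAM, with log2 fold changes of −0.29 (SE 0.071, *q* = 0.0075) for the macrophage marker *Csf1r* and 1.28 (SE 0.21, *q* = 0.00019) for the T cell marker *Cd3e*, by edgeR. *Csf1r* was also lower with ORX in WT at −0.31 (SE 0.070, *q* = 0.0041) in log2 units, by edgeR. Of fibre markers *Acta1* was lower in KO-SHAM at −0.37 (SE 0.056, *q* = 5.8e-05), and *Myh1* fell with ORX at −0.61 (SE 0.14, *q* = 0.005) in WT and −0.61 (SE 0.15, *q* = 0.0074) in KO, in log2 units by edgeR. The other fibre calls were *Mylpf*, higher with ORX in WT at 0.44 (SE 0.071, *q* = 0.0001), and *Tnnt3*, lower with ORX in KO at −0.20 (SE 0.049, *q* = 0.0087) and in KO-Empty against WT-Empty at −0.37 (SE 0.084, *q* = 0.0062), in log2 units by edgeR. Whether these contributed to the differences of the 8 genes was not tested.

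Fibro-adipogenic progenitor and fibroblast markers, found 5 of 5 with *Dcn* the most abundant, bear on *Il1r1*, and their members moved in different directions. *Dcn* rose with DHT by 0.54 (SE 0.11, *q* = 0.0012) in WT and 0.51 (SE 0.11, *q* = 0.0052) in KO, in log2 units by edgeR. *Pdgfra* fell with DHT in WT at −0.44 (SE 0.084, *q* = 0.00045) and *Lum* fell with DHT in KO at −0.98 (SE 0.14, *q* = 5.3e-05), in log2 units by edgeR. With ORX *Lum* rose by 0.59 (SE 0.089, *q* = 3.6e-05) in WT and 0.57 (SE 0.093, *q* = 0.0002) in KO and *Pdgfra* fell in WT at −0.23 (SE 0.058, *q* = 0.0098), in log2 units by edgeR. The summed level of the list with DHT overlapped, at 1179 to 1797 CPM (median 1463) in WT-Empty, 1364 to 2588 CPM (median 1781) in WT-DHT, 1405 to 2545 CPM (median 1492) in KO-Empty and 1450.0 to 2005 CPM (median 1679) in KO-DHT.

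Of endothelial markers, found 5 of 5, the most abundant, *Pecam1*, rose with DHT in WT by 0.33 (SE 0.072, *q* = 0.0019) in log2 units by edgeR and was not called in KO. Their sum was 141 to 184 CPM (median 161) in WT-Empty, 179.7 to 233 CPM (median 208) in WT-DHT, 161 to 208 CPM (median 185) in KO-Empty and 169.8 to 238 CPM (median 218) in KO-DHT. Of 3 smooth muscle and pericyte markers, all found, 1 was called, the most abundant, *Rgs5*, which rose with DHT by 0.45 (SE 0.072, *q* = 5.4e-05) in WT and 0.34 (SE 0.072, *q* = 0.0032) in KO, in log2 units by edgeR. The sum of this list, mostly *Rgs5*, was 344 to 433 CPM (median 371) in WT-Empty, 439.7 to 525 CPM (median 509) in WT-DHT, 304 to 397 CPM (median 369) in KO-Empty and 412 to 477 CPM (median 457) in KO-DHT, with no overlap within a genotype. Satellite cell markers, found 4 of 4 with *Cdh15* the most abundant, summed to 27.2 to 33.8 CPM (median 27.5) in WT-Empty, 24.4 to 27.4 CPM (median 26.4) in WT-DHT, 31.7 to 36.1 CPM (median 34.8) in KO-Empty and 21.5 to 30.9 CPM (median 29.3) in KO-DHT. Their sum was lower with DHT in KO without overlap, the WT groups just overlapped, and *Myf5* was higher in KO-SHAM than WT-SHAM at 0.75 (SE 0.18, *q* = 0.0053) in log2 units, by edgeR. Whether cell content contributed to the changes of the 8 genes was not tested.

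Across the 45 libraries, centred within each experiment, each of the 8 genes had neighbours in expression, given as Pearson correlations of log2 CPM without a *p* because libraries of a group share treatment and genotype. *Serpinb6a* was most like *Cdk19* (0.98), a kinase of the Mediator complex, and *Amd2* (0.97) and *Amd1* (0.97), near-identical copies of the polyamine enzyme adenosylmethionine decarboxylase whose separate counts are uncertain. *Serinc3* was most like *Slc25a30* (0.97), *Wls* (0.96) and *Cacna2d4* (0.96), and *Anxa7* like *Cacna2d4* (0.95), *Abi2* (0.94) and *Fam20b* (0.94). The calcium channel subunit *Cacna2d4* was thus shared by both membrane genes. *Pla2g7* was most like *Pld5* (0.96), *Actn3* (0.95) and *Ybx3* (0.95). Both *Pla2g7* and the deleted gene *Actn3* were low in every KO library, so their correlation restates the genotype difference. Within WT they moved in opposite directions, *Actn3* by 0.42 (SE 0.088) with ORX and −0.44 (SE 0.090) with DHT in log2 units. The changes of *Pla2g7* there were −0.27 (SE 0.13) and 0.31 (SE 0.13).

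By the same correlation *Il1r1* was most like *Map4k4* (0.94), *Tekt1* (0.93) and *Atp9a* (0.93), and *Map4k4*, a kinase of inflammatory signalling, lies on the same chromosome with only 2 counted genes between. *2310016D23Rik* was most like *Mybph* (0.93), a myosin-binding protein, *Gstk1* (0.93) and *Ivd* (0.93). *Pitpna* was most like *Mafa* (0.86), *Gm6665* (0.83) and *Gstm2* (0.82). *Efcab6* was most like *Flot2* (0.83), a membrane scaffold.

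On the genome, the counted genes on either side of the 8 were mixed in their response, and all *q* values here are from edgeR's quasi-likelihood test. *Mss51*, next to *Anxa7*, encodes a muscle mitochondrial protein and fell with ORX with a log2 fold change of −1.13 (SE 0.24, *q* = 0.0019) in WT and was −0.42 (SE 0.25, *q* = 0.31) in KO. It rose with DHT by 2.11 (SE 0.32, *q* = 2.5e-05) in WT and was −0.030 (SE 0.30, *q* = 0.97) in KO, in log2 units by edgeR, the same directions as *Anxa7* in WT. Beside *Serinc3*, *Pkig*, an inhibitor of protein kinase A, rose with DHT in WT by 0.69 (SE 0.078, *q* = 3.8e-07) and *Ttpal*, a lipid carrier, by 0.50 (SE 0.097, *q* = 0.00054) in log2 units by edgeR. *Il1r2*, described above, neighbours *Il1r1*. *Gm33432* beside *Efcab6* fell with DHT in WT at −1.55 (SE 0.23, *q* = 1.5e-05), *Cd28* beside *2310016D23Rik* rose with ORX in WT by 0.60 (SE 0.14, *q* = 0.0041), and *Slc43a2* beside *Pitpna* fell with DHT in KO at −0.46 (SE 0.11, *q* = 0.0095), in log2 units by edgeR. The other 9 of the 16 flanking genes were not called with treatment. Whether neighbours share a control element was not tested.

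Exons of *Serpinb6a* are overlapped from the opposite strand by *1110046J04Rik* (584 bases, 10.8% of its exon length), *Nqo2* (762 bases, 14.1%) and *Ripk1* (241 bases, 4.46%). Because the strand setting of the counting is not stated, the counts of *Serpinb6a* are uncertain to that extent. These shares do not bound the uncertainty of the other 3 genes, which were far scarcer than *Serpinb6a* (mean 273 CPM in males). Whether reads of *Serpinb6a* were counted for them was not tested. The noncoding *1110046J04Rik* had a mean level of 3.05 CPM in males and fell with ORX in WT with a log2 fold change of −0.66 (SE 0.12, *q* = 0.00042), by edgeR, and with DHT in WT it rose by 1.30 (SE 0.17, *q* = 3.3e-06). *Nqo2*, with the longest overlap, had log2 fold changes of −0.029 (SE 0.058, *q* = 0.84) with ORX and −0.12 (SE 0.061, *q* = 0.18) with DHT in WT and fell with DHT in KO at −0.27 (SE 0.061, *q* = 0.0056), by edgeR, and *Ripk1* was not called with treatment. Of these 3 genes, then, only the noncoding one had the directions of *Serpinb6a*. *Serinc3* is overlapped by *0610039K10Rik* (134 bases, 3.49%) and *Pla2g7* by *1700071M16Rik* (319 bases, 10.98%), also from the opposite strand. Searching all transcripts on both strands, 100-base stretches shared with another gene made up 19.9% of *Serpinb6a*, 0.964% of *Serinc3* and 3.40% of *Pla2g7*, all from these overlapping genes, and 0 of the other 5. No such stretch was shared with a gene elsewhere in the genome.

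Promoters were read from RefSeq transcript starts on GRCm38.p6 as windows of 300 bases (250 before and 50 after the start), and windows were found by symbol for 7 of the 8 genes (not *Efcab6*), 10 in all. The core of the androgen response element, AGAACA or its reverse complement TGTTCT, was present in 2 of the 10, that is 1 of *Il1r1*, 131 bases before the start, and the 1 of *Pla2g7*, 122 bases before it. It is present in 19.0% of 32851 promoters. The complete palindrome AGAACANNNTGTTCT was in 0 of the 10 and in 0.00913% of all promoters. A TATA box (TATAAA) was in 0 of the 10 (13.6% of all), a CCAAT box in 4 (37.4% of all) and a GC box (GGGCGG) in 7 (35.7% of all), each counted on both strands. A match of 6 letters is a description of the sequence and says nothing of binding, and androgen receptor sites mostly lie far from promoters.

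The sequence before the start is shown for the promoter windows with the core, of the receptor *Il1r1* and the phospholipase *Pla2g7*. It is also shown for 1 of the 2 windows of *Serpinb6a*, both of which lacked the core. Capitals mark the core and all other bases are in lower case. The stretches are *Il1r1* at chr1:40266336-40266585 (plus strand), *Serpinb6a* at chr13:34002795-34003044 (minus strand) and *Pla2g7* at chr17:43568201-43568450 (plus strand), build GRCm38.p6, from RefSeq.
Il1r1: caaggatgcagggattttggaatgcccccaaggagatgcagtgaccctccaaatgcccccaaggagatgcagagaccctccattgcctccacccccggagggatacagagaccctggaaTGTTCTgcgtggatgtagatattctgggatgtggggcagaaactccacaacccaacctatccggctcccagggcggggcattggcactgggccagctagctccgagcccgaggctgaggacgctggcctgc
Serpinb6a: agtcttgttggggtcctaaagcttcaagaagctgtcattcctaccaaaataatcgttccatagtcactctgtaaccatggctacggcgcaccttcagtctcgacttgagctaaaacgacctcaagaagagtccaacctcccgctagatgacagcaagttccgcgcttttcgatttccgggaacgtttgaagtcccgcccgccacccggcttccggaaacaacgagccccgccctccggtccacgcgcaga
Pla2g7: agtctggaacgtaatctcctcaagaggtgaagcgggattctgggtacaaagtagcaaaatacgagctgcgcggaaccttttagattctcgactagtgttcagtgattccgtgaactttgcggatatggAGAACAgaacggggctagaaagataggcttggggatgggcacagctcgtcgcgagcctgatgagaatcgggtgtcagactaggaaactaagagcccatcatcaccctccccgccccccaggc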

How the data were processed

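Bulk muscle RNA of 45 mice had been made into stranded total RNA libraries. The authors aligned the reads to GRCm39 with STAR 2.7.1b, used SAMtools 1.9 and Picard 2.20.2, and counted reads per gene with featureCounts of Subread 2.0.0 within the RNASik pipeline, and the deposited values are these raw counts. The strand setting of the counting is not stated. The tables held 17514 genes for ORX and 16987 for DHT, and 1 labelled library (KO-ORX replicate 6) had no counts.

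Gene names, exon lengths, overlaps and neighbours came from GENCODE M21 (GRCm38), which matched 17435 and 16922 of the identifiers. From the counts, TMM-scaled CPM and log2 CPM (prior count 2) were computed, and edgeR 4.0.16 (R 4.3.3) fitted group means for each experiment apart with its quasi-likelihood F test, BH adjustment over all genes, and thresholds of *q* ≤ 0.05 for an interaction and *q* ≤ 0.01 elsewhere. The filter (0.5 CPM in at least 2 libraries) removed 0 genes. SEs are the absolute log2 fold change divided by the root of *F*. The script was tested on simulated data. The lowest value of any of the 8 genes in a library was 0.510 CPM, of the short *2310016D23Rik*.

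The members and lists were chosen with earlier results of these data known. Tests between genotypes in control mice had been planned for *Serpinb6a*, *Serinc3*, *Anxa7* and *Pla2g7* and were withdrawn, because the control mice entered the values by which genes were chosen. No *q* is therefore given for the 8 genes. Of each list, genes called in the same direction in both genotypes were named, or otherwise up to 3 with the smallest *p* in WT, together with the most abundant gene. Of each marker list the most abundant gene was named, and of correlated genes the 3 highest. Some results that this rule names are not reported here. Alternatives were DESeq2 1.42.0, limma-voom (limma 3.58.1), library-size scaling, other filters, only the groups compared, each library left out, a replicate block, and other thresholds, gene lengths and prior counts.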

Additional observations from a re-analysis of the deposited data

Results flagged for a closer look

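In 3 of 64 groups of mice a single library lay apart from the rest of its group by Dixon's ratio, where chance alone gives about 1 in 20. The highest WT-DHT library of *Serpinb6a* was at 9.03 log2 CPM, and the next at 8.78. The highest KO-ORX library of *Il1r1* (replicate 1) was at 3.87 log2 CPM, and the next at 3.31. The highest WT-ORX library of *Efcab6* was at 3.99 log2 CPM, and the next at 3.87.

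The size of the treatment change also differed between genotypes, the quantity the genes were chosen for, so values of all 8 genes are given without a test. For DHT, KO minus WT in log2 units was −0.73 for *Serpinb6a*, −1.09 for *Serinc3*, −0.98 for *Anxa7*, 1.61 for *2310016D23Rik*, 0.80 for *Pitpna*, −2.23 for *Il1r1*, −0.099 for *Pla2g7* and 0.22 for *Efcab6*. For ORX it was −0.44 for *Efcab6*, −0.43 for *Pitpna*, 0.84 for *Il1r1*, −0.72 for *2310016D23Rik*, 0.40 for *Serinc3*, 0.33 for *Serpinb6a*, 0.26 for *Anxa7* and −0.21 for *Pla2g7*. Under library-size scaling the ORX value of *Efcab6* was −0.37.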

How the results depend on the processing

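Of 64 log2 fold changes of the 8 genes under 1840 alternative settings, 1778 kept their direction and their side of the threshold, 27 lost and 24 gained a call, and 11 changed sign, all of them near 0 and without a call, and as the choice used these contrasts nothing is read from that. The number of the 8 genes called, on contrasts the choice used, was unchanged or within 1.5 times except for KO-ORX (4, and 1 under library-size scaling) and the genotype by ORX interaction (1, but DESeq2 6, limma-voom 2, library-size scaling 0, *q* ≤ 0.01 0, and 0 to 3 with each library left out). Of all 17514 genes, 5.57% were called in KO-ORX (975, and 900 under library-size scaling). For the interaction 0.0228% were called (4, but DESeq2 127, limma-voom 10, library-size scaling 3, *q* ≤ 0.01 1, and 2 to 38 with each library left out). Because the choice used these contrasts, nothing is read from the counts of the 8 genes. Partner genes called in WT-ORX were 6 (12 at *q* ≤ 0.05), in KO-ORX 7 (DESeq2 11, only the groups compared 3, *q* ≤ 0.05 15, each library left out 3 to 8) and in KO-DHT 2 (DESeq2 5, *q* ≤ 0.05 6, each library left out 1 to 3). The cause was not tested. In the males, with the replicate block in the fit, edgeR called 934 of all genes in WT-ORX (955 without it), 914 in KO-ORX (975), 5 for the interaction (4) and 921 between genotypes in sham (928), and *Map3k7* in WT-ORX lost its call (−0.16, edgeR's *q* = 0.0109). Same-numbered libraries had a median correlation of 0.00697 (−0.15 to 0.188, 6 of 33 over 0.1), and 7 of 23 libraries were closest to their own number. No paired fit was made for the females, because the DHT columns carry animal codes in place of the replicate numbers of the labels. Blocks by the order of those codes were not tried.

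Changes of sign were these. Under library-size scaling the log2 fold change was 0.0085 for *Pafah1b1* and 8.87e-05 for *Pitpnc1* in WT-ORX. In KO-ORX it was 0.076 for *Pafah1b1*, 0.097 for *Serinc1*, 0.038 for *Ptdss1* and 0.028 for *Park7*. In KO-DHT it was −0.012 for *Pafah1b1* and −0.017 for *Map3k7*. With each library left out the range was −0.12 to 0.14 for *Il1r1* in KO-ORX, −0.17 to 0.017 for *Il1r1* in KO-Empty against WT-Empty, −0.042 to 0.015 for *Pitpna* in KO-SHAM against WT-SHAM, −0.026 to 0.079 for *Pitpna* in KO-DHT and −0.031 to 0.011 for *Serinc1* in KO-ORX. It was −0.21 to 0.0050 for *Serpinb1a* in WT-DHT, and in KO-DHT −0.037 to 0.15 for *Serpinb1a*, −0.64 to 0.022 for *Serpinb1c*, −0.090 to 0.020 for *Ptdss1*, −0.029 to 0.10 for *Anxa3*, −0.0057 to 0.053 for *Pafah1b1* and −0.0048 to 0.032 for *Map3k7*.

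Counts over all genes moved with the settings. At *q* ≤ 0.05 in place of 0.01 they were 1735 for 955 in WT-ORX, 1925 for 975 in KO-ORX, 1838 for 928 in KO-SHAM, 3078 for 1914 in WT-DHT, 1840 for 784 in KO-DHT and 1557 for 722 in KO-Empty. With only the groups compared they were 485 in KO-ORX, 505 in KO-DHT and 290 in KO-Empty, with DESeq2 1201 in KO-DHT, and with each library left out 589 to 1116 in KO-ORX and 450 to 700 in KO-Empty. The ORX interaction gave 4 genes (DESeq2 127, limma-voom 10, *q* ≤ 0.01 1, each library left out 2 to 38) and the DHT interaction 550 (273 at *q* ≤ 0.01). Library-size scaling shifted the median log2 fold change of KO-ORX by 0.11. Depth limits the scarce genes most, the groups hold 5 or 6 mice, sex and muscle differ between the experiments, and the strand setting of the counting is unknown.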
